A study of Mus musculus with 2 samples.

Results

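Complement components made by the stromal and myeloid cells of mouse pancreatic tumours were followed through 9 genes: C1qa, C1qb, C1s1, Serping1, C4b, C3, Cfb, C7 and C3ar1. They were chosen by symbol, and all 9 were found among the 31054 features of both count matrices. Tumours were grown as allografts of pancreatic ductal adenocarcinoma in mice of the genotype p16-CreERT2/R26-LSL-tdTomato. In these animals the p16 locus drives a Cre recombinase that a drug activates, and Cre turns on the red fluorescent protein tdTomato, which then stays on in that cell and its descendants. Both groups carry the same alleles and differ in the sort: Tom positive cells were sorted for tdTomato and Tom negative cells for its absence. The mice had been perfused to clear blood from the tumours, and each sort gave 1 library by droplet single-cell RNA-seq (10x Genomics, version 3.1 chemistry). Age, sex, number of mice, any pooling and the induction schedule are not stated in the labels. With 1 library per sort no difference could be tested, and every interval below is a 95% interval that covers counting error only.

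Complement is a set of plasma proteins that mark cells and debris for clearance. C1q binds antibody or damaged surfaces and activates the protease C1r, which activates the protease C1s, and C1s cuts C4 and C2. The resulting enzyme cuts C3, factor B amplifies that step, and the late components then build a pore in the target membrane. The liver makes most circulating components, while C1q is known as a macrophage product and fibroblasts are a known local source of C3 and C1s.

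The filters kept 4302 cells of the Tom positive library and 6580 of the Tom negative one, with medians of 24191 and 20610.5 unique molecular identifiers (UMIs, counts of captured transcripts). Both sorts held fibroblast-like (1303 and 1921), macrophage-like (778 and 986), monocyte-like (366 and 312), neutrophil-like (289 and 541), blood endothelial-like (465 and 115) and pericyte or smooth muscle-like cells (47 and 159). Classes were named from markers that held no complement gene, and complement genes were left out of the variable genes used for clustering. Levels are given as UMIs per 1 000 000 in a population (CPM). The reporter transcript tdTomato stood at 300.3 and 13.2 CPM in fibroblast-like and 1184 and 48.7 CPM in macrophage-like cells. At 500 CPM or more were 195 of 1303 Tom positive fibroblast-like, 592 of 778 macrophage-like and 19 of 465 blood endothelial-like cells. The sorts were less apart in blood endothelial-like cells. There tdTomato was at 315 and 188 CPM in Tom positive cells with and without a C1qa UMI. In Tom negative ones it was at 92.5 and 103.5 CPM. In all, 3660 barcodes occurred in both libraries, and those in which the other library held far more UMIs, or both held few, are called doubted. Mesothelial-like barcodes (medians of 1168.5 and 1245 UMIs; 168 of 170 and 666 of 712 doubted) and plasma-like barcodes (26 of 27 and 91 of 93 doubted) were mostly of that kind.

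The genes divided by source. Of all UMIs of each gene, fibroblast-like cells held 89.8% and 85.9% for C1s1 (Tom positive and Tom negative), 89.6% and 84.4% for Serping1, 91.1% and 92.1% for C4b, 93% and 89.4% for C3, 87% and 87.7% for Cfb, and 95.5% and 87.9% for C7. Macrophage-like cells held 73.8% and 66% of C1qa, 71.9% and 63.3% of C1qb and 66.2% and 62% of C3ar1. A further 16.5% and 25% of C1qa UMIs were in cluster 1, which was not named and is left out of that class. These shares also follow how many cells of each type were captured. By level, C1qa, C1qb and C3ar1 were highest in macrophage-like cells of both libraries. None of the other 6 was highest in fibroblast-like cells of both libraries, because mesothelial-like or plasma-like barcodes ranked first in at least 1 library for each. With doubted barcodes removed, 5 of them were.

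**Figure D1:**
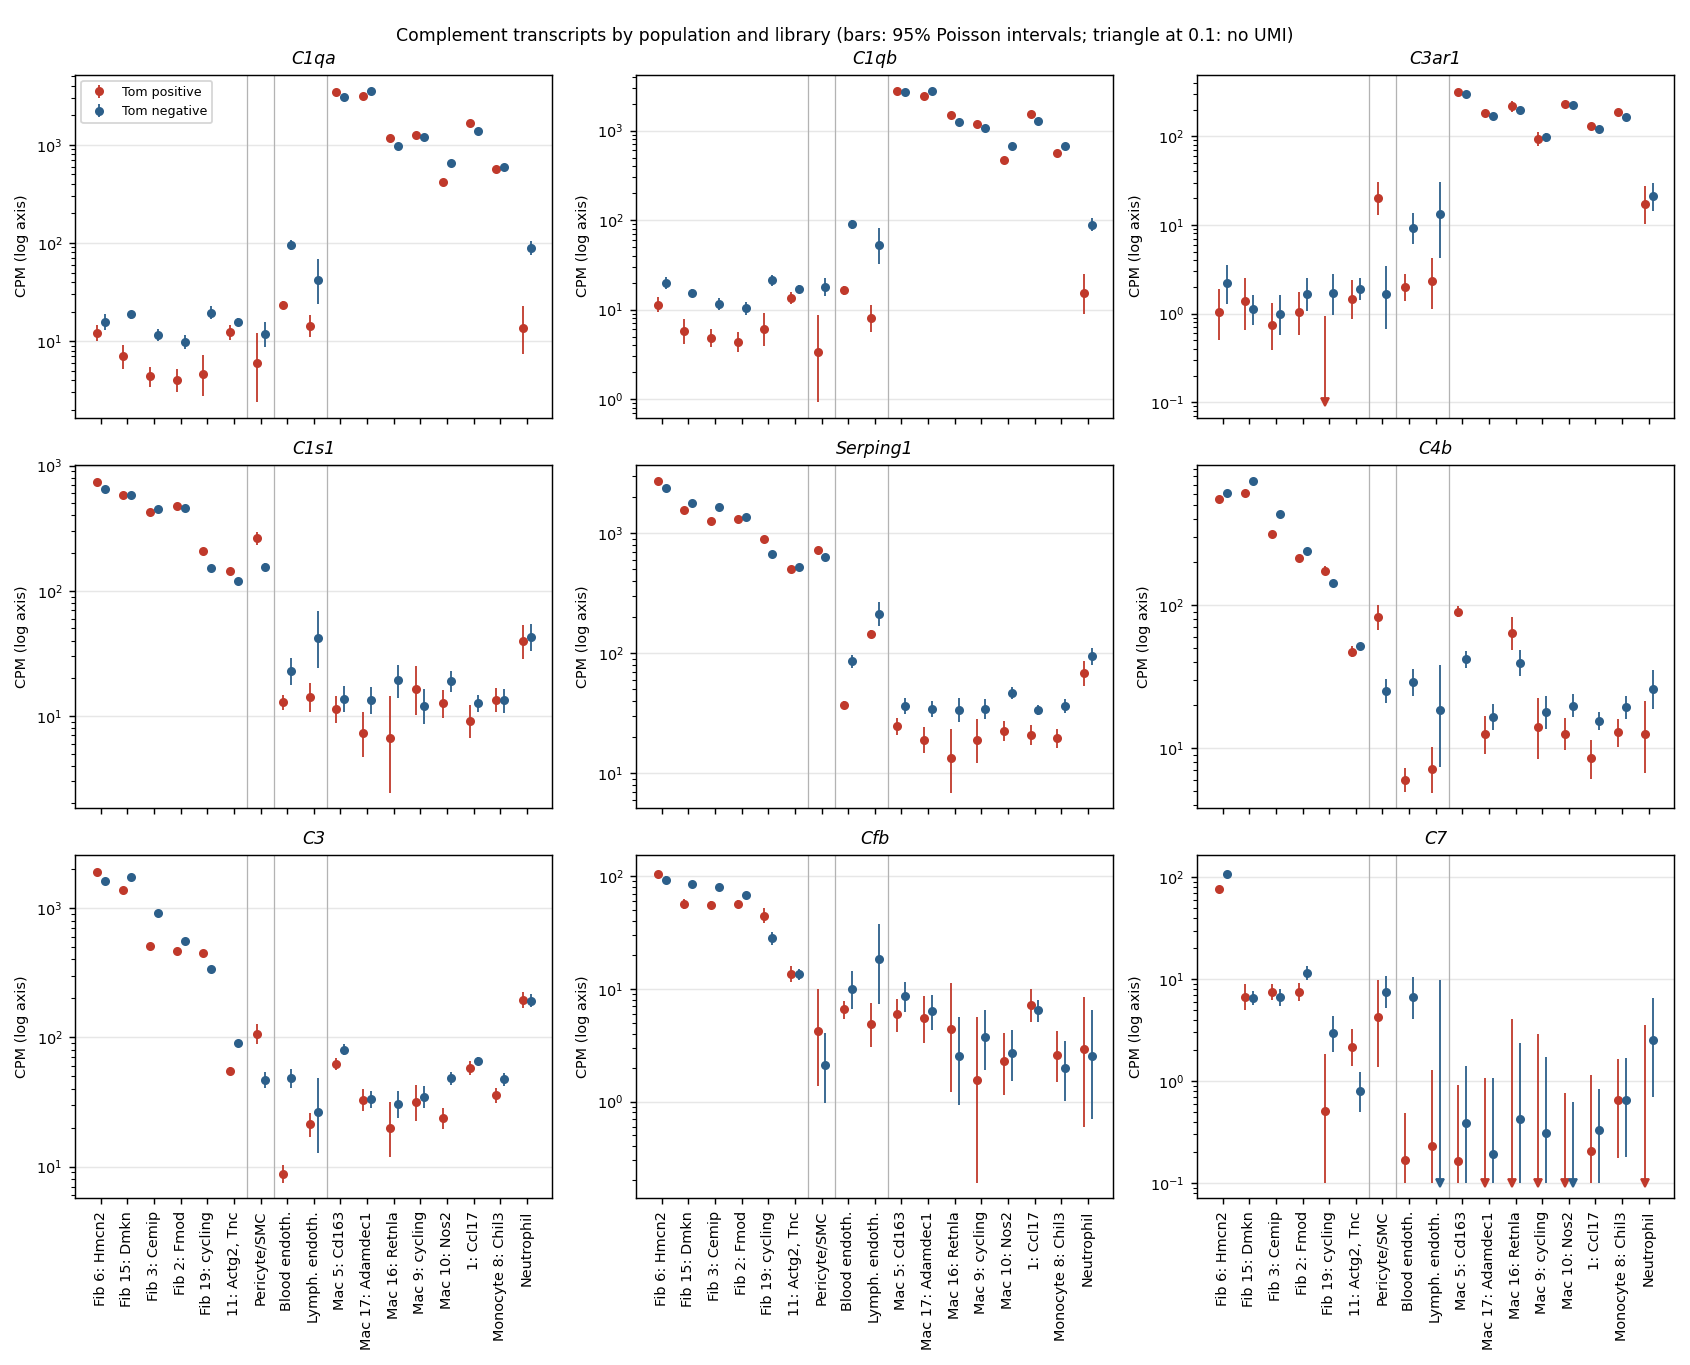
Level of each gene (CPM, log axis) in 17 populations of both libraries; bars are 95% Poisson intervals and a triangle at 0.1 marks a population with no UMI. C1qa, C1qb and C3ar1 stand high in myeloid populations and the other 6 in fibroblast clusters, with C7 in 1 cluster.

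The 250 bases before the start of 4 of these genes are shown because they stand for both sources: C3 and C7 for fibroblasts, C1qb and C3ar1 for myeloid cells. They are RefSeq promoters of GRCm38.p6, read 5′ to 3′ on the minus strand at chr17:57228137-57228386 (C3), chr15:5063774-5064023 (C7), chr4:136886201-136886450 (C1qb) and chr6:122856158-122856407 (C3ar1). Entries were found for 5 of the 9 genes. Capitals mark a match, on either strand, to TATAAA (the TATA box), TTGCNNAA (the C/EBP type), GAGGAA (the PU.1 type) or TTCNNNGAA (the STAT type); the interferon-stimulated response element was searched too.
C3: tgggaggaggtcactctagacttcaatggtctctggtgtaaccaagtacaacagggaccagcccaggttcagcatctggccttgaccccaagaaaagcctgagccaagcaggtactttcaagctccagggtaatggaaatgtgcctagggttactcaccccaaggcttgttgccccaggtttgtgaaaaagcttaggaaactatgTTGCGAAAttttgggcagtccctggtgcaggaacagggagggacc
C7: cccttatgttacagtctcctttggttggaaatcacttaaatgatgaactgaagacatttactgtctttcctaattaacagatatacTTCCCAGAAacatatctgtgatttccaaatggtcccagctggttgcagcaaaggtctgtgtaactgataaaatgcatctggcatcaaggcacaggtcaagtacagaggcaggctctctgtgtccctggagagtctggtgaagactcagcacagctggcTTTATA
C1qb: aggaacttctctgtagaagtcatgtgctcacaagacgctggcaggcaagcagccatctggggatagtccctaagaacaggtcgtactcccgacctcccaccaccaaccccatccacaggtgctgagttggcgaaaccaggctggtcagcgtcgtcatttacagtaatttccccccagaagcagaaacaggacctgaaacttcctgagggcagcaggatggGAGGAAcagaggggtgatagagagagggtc
C3ar1: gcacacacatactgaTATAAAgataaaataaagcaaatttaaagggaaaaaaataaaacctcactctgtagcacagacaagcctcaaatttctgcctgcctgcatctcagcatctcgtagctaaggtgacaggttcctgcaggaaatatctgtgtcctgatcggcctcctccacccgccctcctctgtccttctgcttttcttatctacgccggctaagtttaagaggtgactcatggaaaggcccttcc
In C3 the match is TTGCNNAA, 45 bases before the start, a motif held by 9.56% of 32851 promoter windows of that length. C1qb has GAGGAA at 30 bases (23.3% of windows). C7 has TTCNNNGAA at 164 bases (7.02%) and TATAAA on the other strand at 6 bases (12.4%), and C3ar1 has TATAAA at 235 bases. The interferon element, in 2.98% of windows, was in none of the 4. These matches describe the letters and are not binding measured in these cells.

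C1qa and C1qb encode the A and B chains of C1q and lie near each other on chromosome 4 (C1qa at chr4:136895917-136898803 and C1qb at chr4:136880129-136886187, mm10, GENCODE M21). Among macrophages they were graded. Cells led by Cd163, Ms4a7 and Folr2 (cluster 5, Cd163 macrophages) were highest for C1qa among Tom positive populations with 3416 CPM (3369 to 3462), and their Tom negative counterparts held 3102 CPM (3054 to 3150). Cells led by Adamdec1, Ifitm1 and Ccl24 (cluster 17) held 3171 and 3557 CPM. Both clusters stood above all other populations, and which of them was first differed between libraries. Next came cells led by Ccl17, Dcstamp and Plet1 (cluster 1, not named, 1684 and 1378 CPM), cycling macrophages (cluster 9, 1264 and 1188 CPM) and macrophages led by Retnla (cluster 16, 1178 and 978 CPM). Monocyte-like cells (568 and 598 CPM) and macrophages led by Nos2, Rsad2 and Mmp12 (cluster 10, 416 and 653 CPM) were the lowest of these. For C1qb the first place also changed between clusters 5 (2789 and 2689 CPM) and 17 (2464 and 2765 CPM), and Nos2 macrophages (470 and 669 CPM) and monocyte-like cells (559 and 667 CPM) were again lowest.

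The share of cells with the transcript was graded too. After each cell was thinned to 2000 UMIs, a C1qa UMI was found in 95.1% and 87.7% of Cd163 macrophages and in 93.8% and 100% of Adamdec1 macrophages. In Nos2 macrophages the thinned share was 25.2% (19.9 to 31.2) in the Tom positive and 36.6% (31 to 42.5) in the Tom negative library. Fibroblast-like cells, which are not known as a source of C1q, had a C1qa UMI in 14.8% and 31.4% of cells at medians of 38809 and 35878 UMIs, but in 1.17% and 2.62% after thinning. Macrophage-like cells had one in 80.5% and 82% at medians of 19054 and 20530.5 UMIs, and in 69.5% and 68.9% after thinning.

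**Figure D2:**
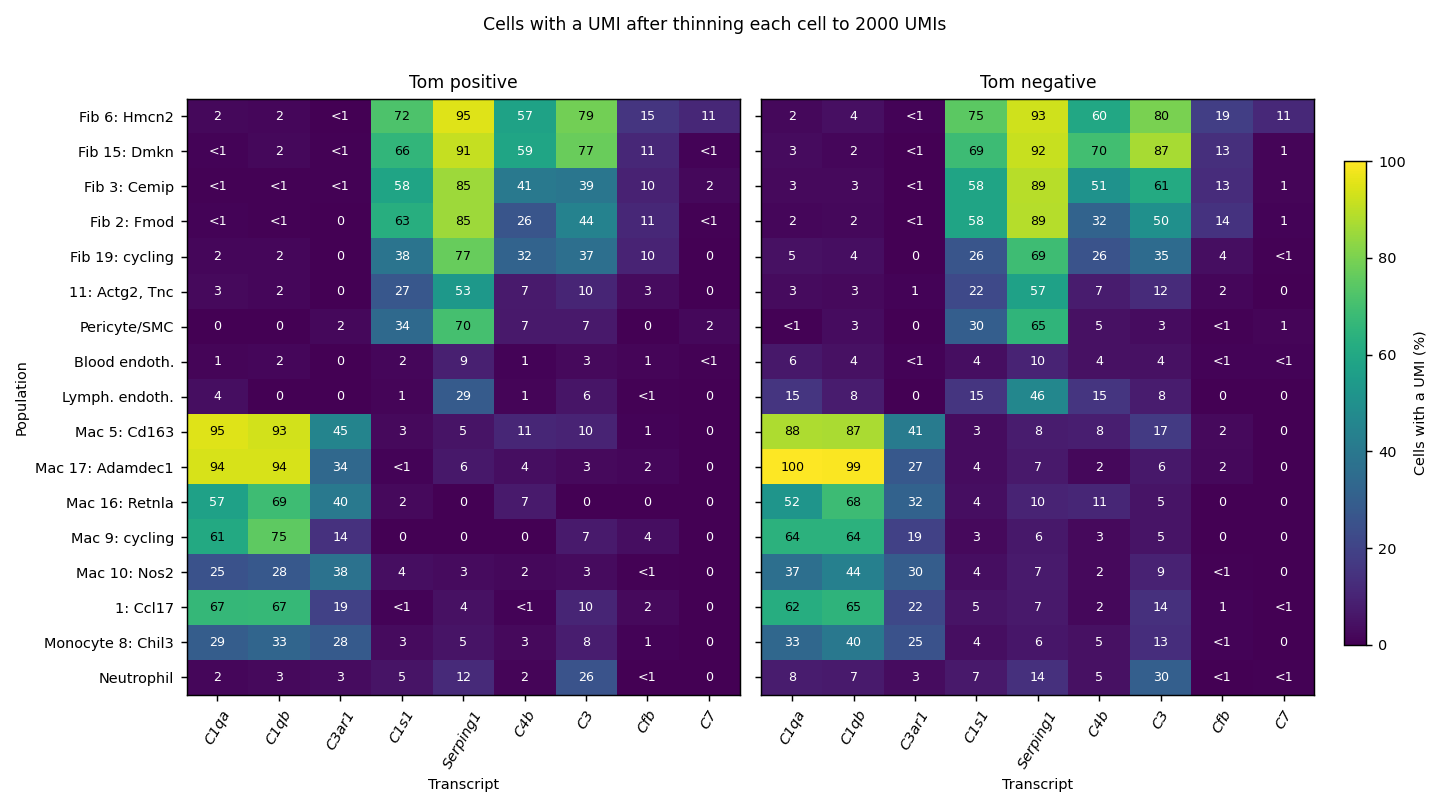
Percentage of cells with at least 1 UMI after thinning each cell to 2000 UMIs, for 9 genes and 17 populations in both libraries. C1qa is found in 95.1% and 87.7% of cells of cluster 5 and 25.2% and 36.6% of cluster 10. Fibroblast-like cells are drawn by cluster, and over the whole class, which has no row, Serping1 is found in 88.1% and 89.1%.

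Between sorts the C1q pair was close in macrophages as a class. Macrophage-like cells held C1qa at 2198 and 2031 CPM, giving a Tom positive to Tom negative ratio of 1.08 (1.07 to 1.1), and C1qb at 1848 and 1762 CPM, with a ratio of 1.05 (1.03 to 1.06). A gene counts as called higher or lower where it reached 10 CPM in a library and CPM + 1 differed by at least 1.5-fold. In Nos2 macrophages C1qa was called lower in the Tom positive library (ratio 0.637 (0.603 to 0.672)), and C1qb, at 0.702 (0.667 to 0.74), was not called.

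In the named classes other than macrophages and monocytes C1q was low. C1qa was lower in the Tom positive library in 3 of the larger classes, at 6.16 and 15.1 CPM in fibroblast-like, 23.4 and 95.5 CPM in blood endothelial-like and 13.5 and 89.3 CPM in neutrophil-like cells. Lyz2, an abundant myeloid transcript, was lower in the same way in fibroblast-like (26.1 and 57.7 CPM) and blood endothelial-like cells (52.9 and 190.3 CPM). Macrophage RNA arriving in proportion to Lyz2 would carry 9.93 and 21.1 CPM of C1qa into fibroblast-like and 20.2 and 69.5 CPM into blood endothelial-like cells. The scaled amount was not near the measured one in every class. In Tom positive neutrophil-like cells it was 55.6 CPM against 13.5 CPM measured, and in Tom positive mural cells 16.5 against 5.93 CPM. Single cells weighed on these low values: 1 Tom positive endothelial-like cell held 196 of 421 C1qa UMIs, and 1 Tom negative neutrophil-like cell held 56 of 140. Mesothelial-like barcodes, nearly all doubted, went the other way, with C1qa at 72.4 and 35.3 CPM. The part of free RNA in these values was not tested.

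C3ar1 encodes the receptor for C3a, the fragment released when C3 is cut, and lies at chr6:122847138-122856161. It was myeloid too, with another order. Cd163 macrophages were first, at 316 CPM (302 to 331) and 301 CPM (286 to 316). Nos2 macrophages, among the lowest for C1qa, came next with 229 and 226 CPM, and Retnla macrophages held 218 and 197 CPM. Monocyte-like cells (186 and 163 CPM) and Adamdec1 macrophages (182 CPM (168 to 197) and 169.8 CPM (159 to 181)) did not differ beyond their intervals. The Ccl17 cells held 129.5 and 122 CPM and cycling macrophages 93.3 and 97.6 CPM. Neutrophil-like cells were far lower, at 17.4 and 21.1 CPM, and fibroblast-like cells at 0.915 and 1.39 CPM. Between sorts its ratio was 1.16 (1.11 to 1.21) in macrophage-like and 1.14 (1.05 to 1.24) in monocyte-like cells, neither called.

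C1s1 (chr6:124530345-124542359) encodes a C1s protease and Serping1 (chr2:84765387-84775444) the C1 inhibitor, which blocks C1r and C1s. Among fibroblast clusters both were highest in cells led by Hmcn2, Csmd1 and Abca8a (cluster 6): C1s1 at 743 CPM (726 to 761) and 644 CPM (626 to 662), and Serping1 at 2714 CPM (2681 to 2747) and 2385 CPM (2350 to 2420). Fibroblasts led by Dmkn (cluster 15) held C1s1 at 585 and 582 CPM, those led by Fmod (cluster 2) at 475 and 461 CPM and those led by Cemip (cluster 3) at 426 and 448 CPM. Cycling fibroblasts (cluster 19) were lower at 206 and 152 CPM. Cells led by Actg2, Tnc and Bmpr1b (cluster 11, not named) held C1s1 at 143 and 120.3 CPM and Serping1 at 501 and 521 CPM, below every fibroblast cluster, at medians of 47240 and 45619 UMIs. C1s1 has a close copy, C1s2, and 2.68% of the 90-base windows in the last 500 bases of C1s1 occur in it. Reads from those windows could not be told apart, and the effect on the C1s1 value was not measured.

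Serping1 and C1s1 were also found in mural cells, and the part of free RNA there was not tested. Pericyte or smooth muscle-like cells held Serping1 at 721 and 638 CPM and C1s1 at 262 and 155 CPM. Fibroblast RNA arriving in proportion to the collagen transcripts Col1a1, Col1a2 and Col3a1, which mural cells also make, would carry 359 and 236 CPM of Serping1 and 116 and 71.3 CPM of C1s1. C1s1 was called higher in Tom positive mural cells, at a ratio of 1.69 (1.47 to 1.94) from 309 and 656 UMIs, and 1.6 (1.39 to 1.85) without the cell of most UMIs in each library. The log2 difference of 0.75 was 0.2 when cells were clustered more finely (Leiden resolution 2) and 0.28 after thinning, and the call ended under both.

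In macrophage-like cells Serping1 was called lower in the Tom positive library, at 21.8 and 38.1 CPM, a log2 difference of -0.78 that was -0.5 and no longer called as a mean over cells. In Cd163 macrophages it stood at 24.7 and 36.4 CPM, which is 0.931 and 1.01 times the collagen-scaled amount. Tom positive lymphatic endothelial-like cells held Serping1 at 145 CPM. Tom negative ones were 33 cells with a median of 1605 UMIs, 21 of them doubted; 6 of 8 measured members were called lower in the Tom positive library in this class, against 30.3% of all genes, and nothing is read from it.

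C4b encodes complement C4, cut by C1s, and C3 the protein on which all routes converge; they lie at chr17:34728380-34743882 and chr17:57203970-57228136. C4a, the near-identical copy of C4b, is not among the features of the matrices. Of 411 windows of 90 bases in the last 500 bases of C4b, 0 were found in it. Only exact matches were sought, so reads of C4a counted as C4b are not excluded. C3 was at 1914 CPM (1887 to 1942) and 1621 CPM (1592 to 1650) in Hmcn2 cells, and at 1387 CPM (1360 to 1414) and 1734 CPM (1718 to 1751) in Dmkn cells, so the first place changed with the library. Cemip cells held 506 and 918 CPM, Fmod cells 464 and 554 CPM and Actg2 cells 54.8 and 90.6 CPM. C4b was highest in Dmkn cells (608 and 736 CPM), then Hmcn2 cells (553 and 613 CPM), and lowest in Actg2 cells (47.4 and 51.9 CPM). For both genes the range between these clusters of 1 library was wider than any difference between libraries.

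C3 was called between sorts in 2 of these clusters. In Cemip cells it was lower in the Tom positive library, at a ratio of 0.551 (0.536 to 0.566), with a thinned share of 39.2% (34.3 to 44.3) against 61% (56.1 to 65.8). The ratio there was 0.309 (0.285 to 0.336) when Tom positive cells were limited to the 53 with tdTomato of 500 CPM and above, a limit that selects on the sorted reporter. In Actg2 cells the ratio was 0.605 (0.553 to 0.661). Elsewhere it ran from 0.8 in Dmkn and 0.836 in Fmod cells to 1.18 in Hmcn2 and 1.32 in cycling cells, so the direction was not shared. Over all fibroblast-like cells C3 stood at 887 and 1127 CPM, with a ratio of 0.786 (0.777 to 0.796), and C4b at 365 and 482 CPM, with 0.758 (0.745 to 0.772), neither called.

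**Figure D3:**
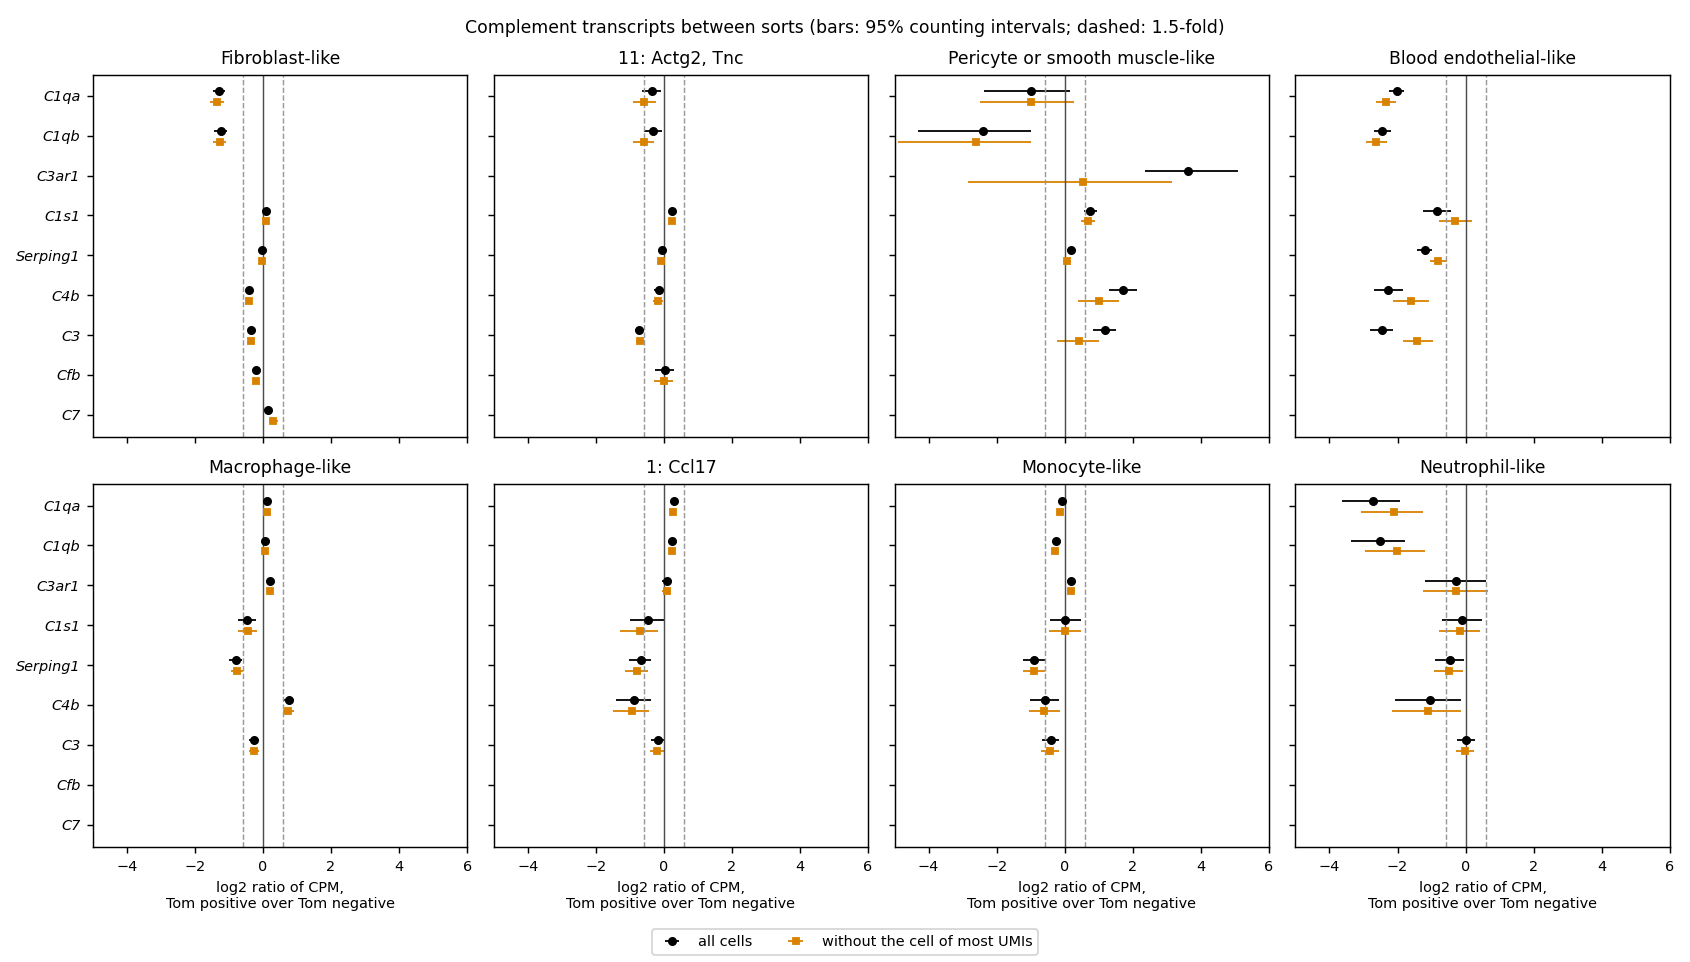
Log2 ratio of CPM, Tom positive over Tom negative, for genes that reached 10 CPM in a library, in 8 populations; bars are 95% counting intervals, dashed lines mark 1.5-fold, and the second marker leaves out the cell with most UMIs of the gene in each library. In fibroblast-like cells C1qa and C1qb lie past the lines, in macrophage-like cells C4b and Serping1, and several mural and endothelial values move toward 0 without 1 cell.

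Counted over the genes, 2 of 8 measured members were called in fibroblast-like cells (C1qa and C1qb, lower), where 2.5% of all measured genes were. In macrophage-like cells 2 of 7 were called (C4b higher, Serping1 lower) against 2.07% of all genes, and in monocyte-like cells 1 of 7 (Serping1, lower) against 5.73%. Cemip cells had 3 of 7 called (C1qa, C1qb and C3, lower) against 2.37%, and Actg2 cells 1 of 7 (C3, lower) against 2.12%. Ccl17 cells had 2 of 7 called (C4b and Serping1, lower) against 3.07%, Nos2 macrophages 4 of 7 (C1qa, C3, C4b and Serping1, lower) against 4.45%, and Cd163 macrophages 1 of 7 (C4b, higher) against 3.54%. In neutrophil-like cells 3 of 7 were called lower (C1qa, C1qb and C4b), but 41% of all genes were called there, with a median log2 difference of 0.38.

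Vascular populations had more calls over a larger background. All 6 measured members were lower in Tom positive blood endothelial-like cells, against 12.4% of all genes. Of 137 C3 UMIs in the 115 Tom negative endothelial-like cells, 75 were in 1 cell; the ratio was 0.181 (0.143 to 0.23) as measured and 0.374 (0.277 to 0.512) without the top cells. For C1s1 it went from 0.559 to 0.805 and was no longer past 1.5-fold. Mural cells had 6 of 7 called (C1s1, C3, C4b and C3ar1 higher, C1qa and C1qb lower), against 17.1% of all genes. One of the 47 Tom positive mural cells held 93 of 125 C3 UMIs, and the top cells for C4b and C3ar1 held 60 of 97 and 22 of 24. Without the top cells the ratios were 1.33 (0.86 to 2.01) for C3, 2.01 (1.31 to 3.04) for C4b and 1.46 (0.139 to 8.94) for C3ar1. At Leiden resolution 2 only C1qa and C1qb remained past the fold in mural cells.

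Myeloid cells held C3 and C4b in unequal ways. Neutrophil-like cells had C3 at 194 CPM (168 to 223) and 192 CPM (171 to 215), a ratio of 1.01 (0.842 to 1.21), with a UMI in 25.8% and 30.1% of thinned cells. Collagen transcripts in them stood at 5.38% and 5.71% of their fibroblast level, and C3 was 4.07 and 2.98 times the amount that would arrive with them. For Serping1 in the same cells that multiple was 0.815 and 1.04, and for C4b 0.639 and 0.95. The proportion of C3 to Serping1 thus differed between neutrophils and fibroblasts in both libraries. Serping1 in neutrophil-like cells, at 68.6 and 94.4 CPM, was below C3. Mesothelial-like barcodes, mostly doubted, also held more C3 (3099 and 3452 CPM) than Serping1 (1247 and 1597 CPM). Where the C3 transcripts of neutrophil-like cells came from was not tested. C3 in Cd163 macrophages (62.3 and 80.2 CPM) was 4.14 and 3.13 times the scaled amount, and in Ccl17 cells (57.9 and 65.9 CPM) 2.9 and 2.86 times.

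**Figure D4:**
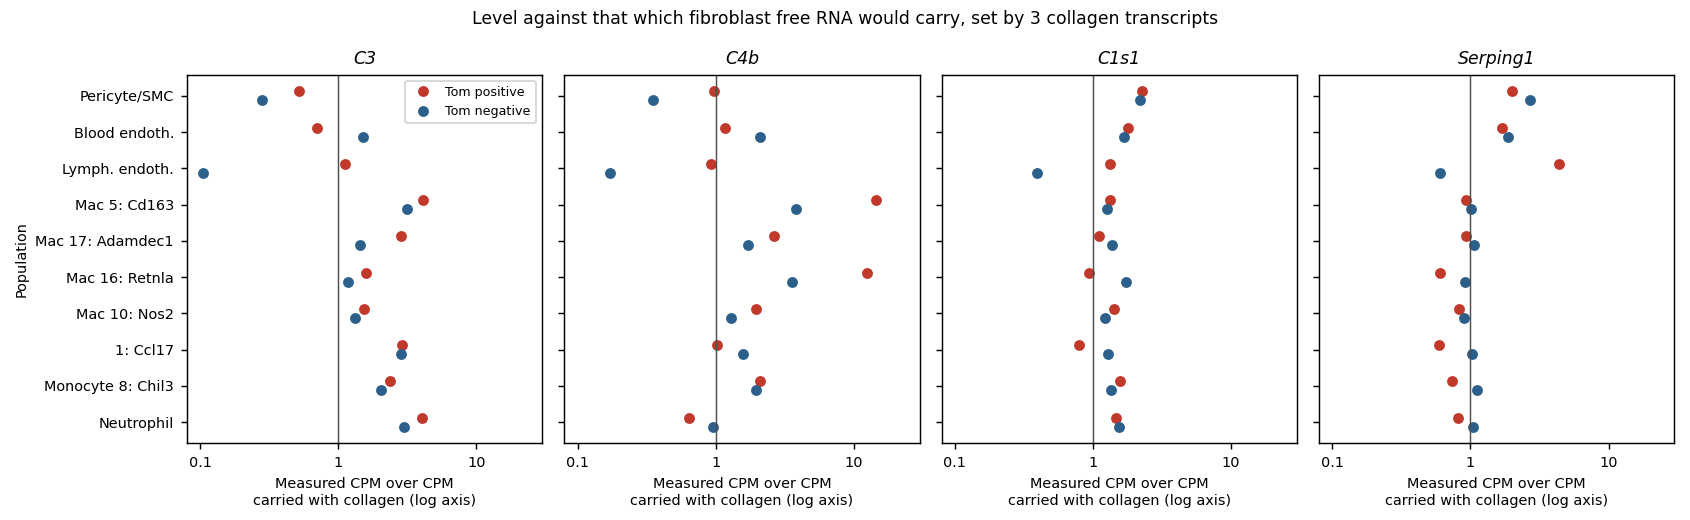
Measured CPM divided by the CPM that fibroblast RNA would carry if it arrived in proportion to Col1a1, Col1a2 and Col3a1 (log axis), for 4 genes and 10 populations in both libraries; the line marks 1. C4b in Cd163 macrophages (14.6 and 3.83) and Retnla macrophages (12.4 and 3.59) and C3 in neutrophil-like cells (4.07 and 2.98) lie to the right of it in both libraries.

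C4b was the one member called higher in Tom positive macrophage-like cells, with a log2 difference of 0.74. The call ended with at most 5% mitochondrial UMIs (0.2) and with clusters weighted equally (0.5). In Cd163 macrophages it was at 90.4 CPM (83 to 98.3) from 549 UMIs and 41.9 CPM (36.4 to 47.9) from 214 UMIs, a ratio of 2.16 (1.84 to 2.54). The ratio was 2.17 without doubted barcodes and 2.19 without the top cells. C4b stood at 14.6 and 3.83 times the collagen-scaled amount. Retnla macrophages also held C4b above it (64.4 and 39.7 CPM), but their ratio of 1.62 was 0.943 without the top cells. Adamdec1 macrophages, rich in C1q, held C4b at 12.5 and 16.7 CPM.

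The C4b UMIs of Cd163 macrophages sat in a minority of cells. At least 3 were found in 55 of 349 Tom positive cells (15.8%, 12.1 to 20.01) and in 20 of 328 Tom negative cells (6.1%, 3.76 to 9.26), with 17 and 18 cells 1 UMI short of that limit; the limit and the genes compared were chosen after the values were seen. Median depth was 15323 UMIs in these cells and 15509 in the others of the Tom positive library, and 15686.5 and 13767 in the Tom negative one. Lyve1, a hyaluronan receptor, was at 617 and 47.1 CPM in C4b-bearing and other cells of the Tom positive library, and at 639 and 55.1 CPM in the Tom negative one. In the same order Cd163, a haemoglobin scavenger receptor, was at 515 and 55.5 CPM, then 263 and 59 CPM. Folr2, a folate receptor, was at 487 and 147 CPM, then 478 and 153 CPM. The C4b-bearing cells were thus higher in all 3 in both libraries. C1qa (4133 and 3282, then 4112 and 3027 CPM) differed less, and Col1a1 (425 and 383, then 401 and 386 CPM) little.

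**Figure D5:**
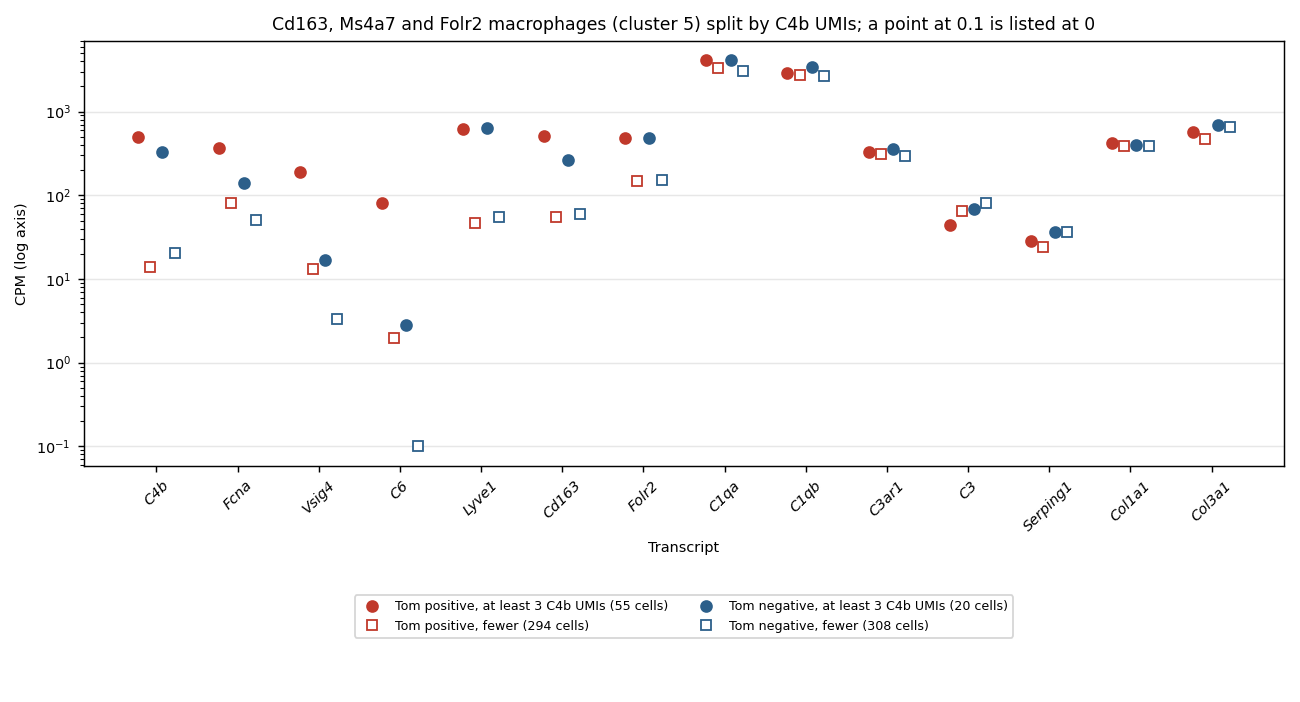
Levels (CPM, log axis) in Cd163 macrophages with at least 3 C4b UMIs (55 and 20 cells) and with fewer (294 and 308 cells) in the Tom positive and Tom negative libraries. Lyve1, Cd163 and Folr2 are higher in the C4b-bearing cells of both libraries, and Col1a1 lies close together.

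Cfb (chr17:34856374-34862518) encodes factor B, the amplifying protease of the alternative route. Hmcn2 cells held 105 CPM (98.6 to 112) and 92.6 CPM (85.9 to 99.7). Dmkn, Cemip and Fmod cells followed, at 56.4 and 85.9, 56 and 80.7 and 57.2 and 67.8 CPM, and Actg2 cells were at 13.6 and 13.4 CPM. The ratio between sorts was 0.656 (0.589 to 0.73) in Dmkn cells and 1.59 (1.3 to 1.93) in cycling fibroblasts, on opposite sides of 1, and 0.869 (0.832 to 0.908) over all fibroblast-like cells. Macrophage-like cells were at 4.36 and 5.07 CPM.

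C7 (chr15:4988762-5063740), which inserts into the membrane as the pore forms, was held mainly by 1 fibroblast cluster. Hmcn2 fibroblasts had 76.4 CPM (71 to 82.1) and 108 CPM (101 to 116), and Fmod, Cemip and Dmkn cells 7.52 and 11.6, 7.54 and 6.67 and 6.74 and 6.51 CPM. Even in Hmcn2 cells a C7 UMI was found in 26.1% and 23.3% of cells, and 1 Tom negative cell held 189 of 827 UMIs. The ratio between sorts was 0.706 (0.638 to 0.781), and 0.847 (0.759 to 0.946) without the top cells. Macrophage-like cells had 1 and 5 C7 UMIs in all.

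Other complement genes were taken from lists by pathway step, of which 44 of 45 were used. In fibroblast-like cells 11 were measured, with 2 higher (Vtn and Cd59a) and 2 lower (C1qc and Cd55), and a median log2 difference of 0.17 against -0.01 for all genes, of which 2.5% were called. Cd55, which dissociates the C3 convertase on the cell surface, stood at 64.3 and 115 CPM, with a ratio of 0.558 (0.536 to 0.581). Its level was highest in Dmkn cells (195 and 256 CPM), which made up 205 of 1303 fibroblast-like cells in the Tom positive library but 697 of 1921 in the other, and within clusters the ratio was 0.762 in Dmkn, 0.747 in Hmcn2, 0.973 in Fmod and 1.12 in Cemip cells, none past 1.5-fold. Vtn, which holds back the membrane pore, stood at 54.9 and 33 CPM, with a ratio of 1.66 (1.57 to 1.76); it was 2.7 in Hmcn2, 1.18 in Dmkn, 0.877 in Fmod and 0.675 in Cemip cells. C1ra, the partner protease of C1s, was at 267 and 288 CPM and C2 at 85.9 and 76.2 CPM, neither called; 11.2% of the 90-base windows at the end of C1ra occur in its copy C1rb.

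In macrophage-like cells 17 of these partners were measured, with 3 higher (Fcna, Colec12 and Vsig4) and 0 lower, and a median log2 difference of 0.17 against 0.01 for all genes, of which 2.07% were called. C1qc, the remaining chain of C1q, was at 1245 and 1160 CPM there. Within Cd163 macrophages 6 of 17 were higher and 0 lower, with a median of 0.36 against 0 for all genes, of which 3.54% were called. Fcna, a ficolin that starts the lectin route, was at 126 and 57.3 CPM there (ratio 2.2 (1.92 to 2.52)). Vsig4, a receptor for C3 fragments, was at 40.9 and 4.3 CPM from 248 and 22 UMIs, a ratio of 9.49 (6.13 to 15.4). One Tom negative cell held 13 of those 22 UMIs, and without the top cells the ratio was 19.97 (10.3 to 44.3). Both were higher in the C4b-bearing cells, which made up 15.8% and 6.1% of Cd163 macrophages. In C4b-bearing and other cells Vsig4 was at 190 and 13.1 CPM (Tom positive), then 17 and 3.36 CPM (Tom negative). Fcna was at 366 and 81.3 CPM, then 138.5 and 51.3 CPM. The ratios of the whole cluster thus also follow its mix of cells. Fcna and Vsig4 were picked out after their values were seen. Cfp, which stabilises the alternative convertase, was at 332 and 365 CPM in macrophage-like cells, and C5ar1, the C5a receptor, at 284 and 265 CPM in them and 615 and 741 CPM in neutrophil-like cells.

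The transcripts most like each member were sought by Pearson's r of log2 level over 25 clusters with both libraries summed, among 7329 genes. This is a description over clusters that share libraries. Clusters of mostly doubted barcodes were among them, and a mesothelial-like one of that kind (cluster 21) ranked first for C3, C1s1 and Cfb. For C1qa the nearest transcripts were Aif1 (0.966), Ms4a6c and Ctss, for C1qb Ctss (0.965), Lyz2 and P2ry6, and for C3ar1 Fcgr2b (0.961), Msr1 and Tbxas1. C1s1 was nearest to Gas1 (0.981), Fxyd1 and Adgrd1, and Serping1 to Fxyd1 (0.976), Gas1 and Slit3. C3 was nearest to Aldh1a1 (0.941), Dcn and Tmeff2, C4b to Abca8a (0.924), Gabra3 and Nova1, C7 to Dpyd (0.94), Inmt and Col6a6, and Cfb to Kif21a (0.902), Rab40b and Pak3.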

How the data were processed

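Counts of UMIs per gene and barcode were deposited by the authors for 2 libraries. They come from Cell Ranger 7.0.1, per the file headers, on mm10, per the submitters' processing notes; the rule for calling cells is not stated there. Kept barcodes had 500 genes and 1000 UMIs or more and no more than 10% mitochondrial UMIs, and Scrublet took out 63 and 97 doublets. All barcodes held 128275546 and 164646314 UMIs, kept cells 117251005 and 151014470.

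Cells were scaled to 10000 UMIs and log-transformed; 2000 variable genes without complement genes gave 30 principal components, a graph of 15 neighbours and Leiden clusters at resolution 1 (scanpy 1.11.5), with no correction between libraries. A cluster was named "-like" from 3 or more markers at 50 CPM that averaged at least 1 log2 unit over the median of all clusters. It stayed unnamed if another class had more markers among its 10 leading genes. The same held if its UMIs were low and no marker of the class was among those genes. Clusters 1 and 11 scored best as macrophage and fibroblast, and the rule on leading genes left them unnamed. Names were rebuilt here and may differ from the study's.

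UMIs were summed per library and population of at least 20 cells. Intervals at 95% are exact Poisson for CPM, exact Clopper-Pearson for shares and exact conditional for ratios. A gene was called at 1.5-fold on log2(CPM + 1) if at 10 CPM or more in a library. With 1 library per sort no test was run and no value has a replicate check; the code was tested on simulated counts. For thinning to 2000 UMIs, shallower cells were dropped (16 and 54 fibroblast-like, 10 and 13 macrophage-like and 29 and 83 neutrophil-like). Doubted means that the same barcode had over 5 times the UMIs in the other library, or under 5000 in both.

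Named are all members, partners at 50 CPM or more in a class of both libraries (a selection is printed), the 3 transcripts most like each member, free RNA reference genes and leading genes of clusters. Members and lists were chosen with earlier results of these data known. Alternatives concerned filters, doublets, doubted barcodes, clustering, weighting, scaling, thinning, reporter level and pseudocount.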

Additional observations from a re-analysis of the deposited data

Results flagged for a closer look

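Called differences of log2(CPM + 1), Tom positive minus Tom negative, pointed opposite ways for 3 members within a limited set of populations. The set was fibroblast-like, macrophage-like, monocyte-like, neutrophil-like, blood endothelial-like and pericyte or smooth muscle-like cells, with clusters 1 and 11. Over all populations further members were called both ways. Cfb was -0.6 in cluster 15 and 0.65 in cluster 19. C1qa was -1.17 in fibroblast-like cells and 1.02 in mesothelial-like barcodes. C3ar1 was 3.01 in pericyte or smooth muscle-like and -1.49 in epithelial or carcinoma-like cells. None of these contrasts between cell types was tested, since each rests on 1 library per sort. C4b was 0.74 in macrophage-like and 1.66 in pericyte or smooth muscle-like cells, but -0.80 in the Ccl17 cells (cluster 1), -1.0 in neutrophil-like and -2.10 in blood endothelial-like cells. C3 was 1.16 in pericyte or smooth muscle-like cells, but -0.71 in the Actg2 cells (cluster 11) and -2.34 in blood endothelial-like cells. C1s1 was 0.75 in pericyte or smooth muscle-like and -0.79 in blood endothelial-like cells. Without the cell of most UMIs in each library the mural values were 0.4 for C3, 0.96 for C4b and 0.68 for C1s1, and the endothelial ones -1.32, -1.46 and -0.29; the macrophage value of C4b was 0.72.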

How the results depend on the processing

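No paired analysis was possible because each sort has 1 library. Over 17 alternatives, 725 values of single genes lay inside the counting interval of the reported CPM ratio and 165 outside it. The values come from CPM + 1 and the interval from CPM, so at low levels a value can lie outside without having moved. Values that were not called also crossed 0 under some alternatives. Of the called values 1 changed sign: C3 in pericyte or smooth muscle-like cells, 1.16 in the log2 difference as reported, was -0.41 at Leiden resolution 2, where 2 members and not 6 were past 1.5-fold in these cells. In fibroblast-like cells 1 member and not 2 was past the fold when Tom positive cells were limited to tdTomato of 500 CPM and above. In macrophage-like cells it was 1 and not 2 with at most 5% mitochondrial UMIs, as a mean over cells and with clusters weighted equally; C4b was the one lost under the first and the last, Serping1 under the mean. Members highest in fibroblast-like cells of both libraries numbered 0 as reported, 6 with at least 1000 genes and 3000 UMIs, 5 without doubted barcodes, 3 after thinning, and 1 with at most 5% mitochondrial UMIs, with 200 genes and no UMI minimum, as a mean over cells, with clusters weighted equally and with the reporter limit. Members highest in a myeloid class of both libraries numbered 3 under all 17. The cause was not tested. The reporter limit left under 20 Tom positive endothelial-like and mural cells and gave no value there. Leaving out the top cell, joining cluster 11 to the fibroblasts and joining cluster 1 to the macrophages were chosen after seeing the data. Depth limits C7 outside fibroblasts and the mural values, which rest on 47 Tom positive cells.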

Other observations

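C3 in Cd163 macrophages was followed by the same kind of split as C4b. At least 3 C3 UMIs were found in 47 of 349 Tom positive cells (13.5%, 10.1 to 17.5) and 48 of 328 Tom negative cells (14.6%, 11 to 18.9), where 30 and 41 cells were 1 UMI short. C4b was at 61.6 and 95.4 CPM in C3-bearing and other cells of the Tom positive library and at 43.8 and 41.4 CPM in the Tom negative one. Lyve1 was at 20.1 and 156 CPM, then 73.4 and 101 CPM, and so lower in the C3-bearing cells of both, while Cd209f (259.7 and 15.8 CPM, then 3.06 and 0.484 CPM) and Ccl8 (2053 and 309.9 CPM, then 330.1 and 166 CPM) were higher in them in both. Cxcl9, an interferon-induced chemokine, was at 279 and 27.6 CPM in the Tom negative library and at 0 and 1.93 CPM in the Tom positive one. Cd209f and Ccl8 were also higher in the C4b-bearing cells of the earlier split, and so not particular to C3. Cd209f was there at 324 and 1.17 CPM (Tom positive), then 8.48 and 0.42 CPM (Tom negative). Ccl8 was at 2494 and 208 CPM, then 367 and 185 CPM. The Tom negative Cd209f values of both splits rest on few UMIs. C3-bearing cells were deeper (medians of 18624 and 15183.5 UMIs, then 18011 and 13310). The limit and these genes were chosen after the values were seen.

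Neutrophil-like cells with at least 2 C3 UMIs numbered 50 of 289 and 66 of 541. Col1a1 in them and in the other neutrophils was at 1132 and 1407 CPM (Tom positive), then 906 and 1040 CPM (Tom negative). In the same order C1qa was at 9.8 and 14.4 CPM, then 283 and 57.3 CPM. In the Tom negative library 1 neutrophil-like cell held 56 of all 140 C1qa UMIs. The limit was chosen after the values were seen, and the source of this C3 was not tested.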
